A study of Mus musculus with 12 samples.

Results

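Sult5a1, Hsd3b4 and Nat8f2 are 3 enzyme genes of mouse liver, each measured by 1 probe among the 33012 probes of the array. They were chosen by their measured signal in control liver, which was higher at postnatal day 28 (P28) than at postnatal day 17 (P17). That age difference is therefore given as a description only. The study asked how liver transcripts differ when the histone deacetylase gene Hdac3 is lost. The 4 groups were P17 Hdac3-null liver, P17 control liver, P28 Hdac3-null liver and P28 control liver, all from mice that the labels call C57B/6 strain where a strain is stated. Each group held 2 RNA pools of 5 mice. The first pool was run on 2 arrays of different chip lots and the second pool on 1 array, which gives 12 arrays and n = 2 pools per group. The controls carried Albumin-Cre, a Cre recombinase driven by the albumin promoter, which is active in hepatocytes. The first control pools came from mice wild type for Hdac3 and the second P28 control pool from wild-type or heterozygous mice, while the second P17 control pool has no such label of its own and is covered only by the design text, which gives wild-type or heterozygous. The labels name neither the alleles nor the Cre of the null livers, and a deletion driven by Albumin-Cre would leave Hdac3 in liver cells that do not express albumin. A bulk liver signal cannot tell fewer expressing cells from less RNA per cell.

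Sult5a1 belongs to the cytosolic sulfotransferases, which attach a sulfonate group to small molecules and so make them more water-soluble. Hsd3b4 belongs to the 3-beta-hydroxysteroid dehydrogenases, which act on carbon 3 of the steroid ring, and the mouse Hsd3b4 protein has been described as a reductase of 3-ketosteroids. Nat8f2, earlier named Cml2 for camello-like, belongs to the Nat8 family of membrane-bound N-acetyltransferases, whose human namesake NAT8 acetylates cysteine conjugates on the way to mercapturic acids. Many such metabolic enzymes of hepatocytes become active between birth and adulthood. HDAC3 is the catalytic deacetylase of the NCoR and SMRT corepressor complexes, through which nuclear receptors hold target genes down.

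In the mouse genome Nat8f2 lies between its relatives Nat8 and Nat8f4, and Hsd3b4 lies beside Gm10681 and Hsd3b5. RefSeq also lists Gm10681 under the name Hsd3b4, and both of these genes span 11509 bases. The stretches of 250 bases before the RefSeq start of each gene follow (RefSeq, GRCm38.p6, minus strand for each, 5′ to 3′). They are shown because the members share the age difference that chose them, and because the Hsd3b4 stretch bears on what its probe can tell. Capitals mark a CCAAT box, as CCAAT or as its reverse complement ATTGG. The positions are chr8:123158281-123158530 for Sult5a1, chr6:85869138-85869387 for Nat8f2, chr3:98510568-98510817 for the farther upstream of 2 listed starts of Hsd3b4 and chr3:98564010-98564259 for Gm10681.
Sult5a1: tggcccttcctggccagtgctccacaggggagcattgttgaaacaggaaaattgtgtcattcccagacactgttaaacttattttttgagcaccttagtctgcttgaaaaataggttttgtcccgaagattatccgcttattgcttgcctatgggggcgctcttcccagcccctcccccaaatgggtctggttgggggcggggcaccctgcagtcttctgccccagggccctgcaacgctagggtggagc
Nat8f2: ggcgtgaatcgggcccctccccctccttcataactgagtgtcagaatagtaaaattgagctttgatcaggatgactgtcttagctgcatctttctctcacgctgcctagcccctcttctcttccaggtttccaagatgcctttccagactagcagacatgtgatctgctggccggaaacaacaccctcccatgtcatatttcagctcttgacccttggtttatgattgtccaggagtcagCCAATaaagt
Hsd3b4: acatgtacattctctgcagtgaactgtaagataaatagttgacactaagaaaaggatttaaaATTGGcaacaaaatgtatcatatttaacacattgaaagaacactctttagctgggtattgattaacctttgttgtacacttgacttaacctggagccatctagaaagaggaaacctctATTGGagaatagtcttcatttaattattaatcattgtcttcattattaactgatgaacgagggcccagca
Gm10681: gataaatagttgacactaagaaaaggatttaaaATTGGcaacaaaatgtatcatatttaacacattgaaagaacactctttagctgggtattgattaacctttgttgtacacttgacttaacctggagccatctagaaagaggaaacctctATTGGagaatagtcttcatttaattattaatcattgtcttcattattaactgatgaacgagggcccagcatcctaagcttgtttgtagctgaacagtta
Over the 221 bases that the Hsd3b4 and Gm10681 windows share, all 221 were identical. The array's probe sequences were not used here. Whether the Hsd3b4 probe also reads Gm10681 or other Hsd3b genes such as Hsd3b5 was not tested, nor whether the Nat8f2 probe reads other Nat8 genes. The Hsd3b4 and Nat8f2 signals are uncertain in that sense. The CCAAT box, searched on both strands, occurred 1 time before Nat8f2 and 2 times before Hsd3b4, did not occur before Sult5a1, and was present in 33.8% of all 32851 promoter windows of this length. Both strands were also searched for the TATA box (TATAAA, in 12.4% of all windows), a nuclear receptor half-site (AGGTCA, in 14% of all windows), a STAT site (TTCNNNGAA, in 7.02% of all windows), a C/EBP-type site (TTGCNNAA, in 9.56% of all windows) and an HNF1-type palindrome (in 0.00913% of all windows). None of these had a full match in the 4 windows shown. The HNF1-type pattern is so strict that only 3 of the 32851 windows matched it, so its absence here says little. Looser matches, with some bases changed, were not searched for any of these sites. The share of G and C was 54.4% before Sult5a1, 48.8% before Nat8f2 and 33.6% before Hsd3b4, against a median of 52.4% over all windows.

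Between 36.5% and 48.2% of probes per array reached a scanner signal-to-noise score of 3. The scanner exports carry no sample names and were read only as sets of 4 arrays. Signal is given as log2 of the quantile-normalized intensity, on which a difference of 1 is a doubling. The second pools of all groups share 1 run set of arrays, the P17 first pools another and the P28 first pools the last. Each null-minus-control difference within a pool number therefore lies inside 1 run set, while the P28-minus-P17 difference does so only in the second pools. One scanner file goes against its label: the second P28 Hdac3-null pool has the file of the P28 first pools attached. By the distribution of its deposited intensities that pool belongs to the run set of the second pools, where it was kept. Hdac3 itself had no probe that could be named, so the deletion was not checked. Of 54 markers of 7 liver cell types, 3 were measured under a name, and 0 of 10 hepatocyte markers, so the tissue label could not be checked against them.

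Sult5a1 averaged 14.21 in both P17 Hdac3-null and P28 control liver, and 11.42 in P17 control liver. In P17 Hdac3-null liver it read 14.45 and 14.23 on the 2 arrays of the first pool and 14.08 in the second pool, against 11.09 and 10.95 in the first and 11.82 in the second pool of P17 control liver. Every null array lay above every control array at this age, an order that pool averages had for 16.7% of all probes. The pools averaged 14.21 ± 0.18 in P17 Hdac3-null and 11.42 ± 0.57 in P17 control liver (SD, n = 2 pools each), a 6.91-fold higher signal with a 95% interval of 3.35 to 14.3. On the log2 scale the difference was 2.79 (SE 0.45) over both pools, 3.32 for first pools and 2.26 for second pools. It did not pass the threshold over all 33010 probes tested (limma, adjusted p = 0.15). Testing only probes over the detection level given with Hsd3b4 (0.046) or using a trended, robust variance (0.014) brought the adjusted p under 0.05, within a range of 0.014 to 1 over 19 alternatives. The P17 control pools also entered the age difference that chose the gene, so this test is not independent of that choice.

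At P28 the order of the genotypes was the other way round for Sult5a1. It read 13.58, 13.78 and 12.74 on the 3 arrays of P28 Hdac3-null liver, against 14.24, 14.34 and 14.13 on those of P28 control liver. The highest null array lay below the lowest control array, an order that pool averages had for 16.7% of all probes. The pools averaged 13.21 ± 0.66 in Hdac3-null and 14.21 ± 0.11 in control liver (SD, n = 2 pools each), a log2 difference of -0.996 (SE 0.45, 95% interval -2.04 to 0.05, adjusted p = 0.56 in limma). The first pools gave -0.61 and the second pools -1.38, and without the second P28 null pool the estimate was -0.53.

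Within Hdac3-null liver, P28 minus P17 was -0.999 for Sult5a1 (SE 0.45, adjusted p = 0.76 in limma), with -0.66 for first pools and -1.34 for second pools, and it was -0.53 without the second P28 null pool. This comparison shares no pool with the one that chose the gene. In control liver the same difference was 2.79, 3.27 for first pools and 2.30 for second pools. The test of whether the genotype effect differed between the ages, which is also the test of whether the age effect differed between the genotypes, gave -3.78 (SE 0.64, adjusted p = 0.34 in limma). First pools gave -3.93 and second pools -3.64. With a trended, robust variance the adjusted p was 0.041, in a range of 0.041 to 1 over 19 alternatives. For each of the 3 genes this test contains the age difference in control liver that chose the gene, so it is not independent of that choice.

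**Figure D1:**
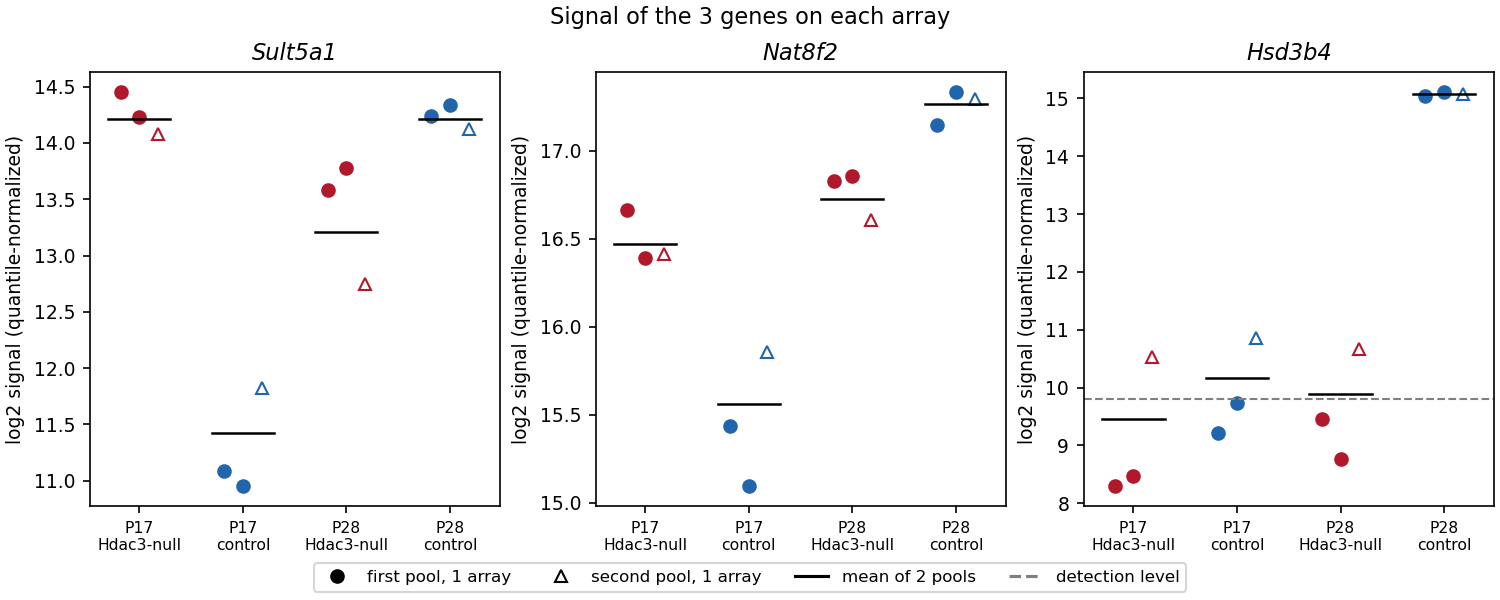
Quantile-normalized log2 signal (vertical axes, a scale of its own for each gene) of Sult5a1, Nat8f2 and Hsd3b4 on the 12 arrays, by group. Filled circles are the 2 arrays of a first pool, open triangles the array of a second pool, black bars the mean of the 2 pools, and the dashed line the detection level of 9.80. Sult5a1 is lowest in P17 control liver at 10.95 to 11.82, and Hsd3b4 stands above 15 only in P28 control liver.

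Nat8f2 had the same order of genotypes at each age as Sult5a1, with smaller differences. At P17 it read 16.67, 16.39 and 16.41 on the arrays of Hdac3-null liver (the first pool's 2 arrays, then the second pool), against 15.44, 15.09 and 15.86 on those of control liver. Every null array lay above the control arrays, as the pool averages of 16.7% of all probes did. The pools averaged 16.47 ± 0.08 in P17 Hdac3-null and 15.56 ± 0.42 in P17 control liver (SD, n = 2 pools each), a log2 difference of 0.91 (SE 0.35, 95% interval 0.09 to 1.73). That is a 1.88-fold higher signal that did not pass the test over all probes (limma, adjusted p = 1). First pools gave 1.26 and second pools 0.55.

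At P28 Nat8f2 read 16.83, 16.86 and 16.60 in Hdac3-null liver, against 17.15, 17.33 and 17.29 in control liver. The arrays again did not overlap, with the null ones lower, as in the pool averages of 16.7% of all probes. The pools averaged 16.72 ± 0.17 in Hdac3-null and 17.27 ± 0.04 in control liver (SD, n = 2 pools each). The log2 difference was -0.54 (SE 0.35, 95% interval -1.36 to 0.28, adjusted p = 0.74 in limma), or -0.40 for first pools and -0.69 for second pools.

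P28 minus P17 in Hdac3-null liver was 0.25 for Nat8f2 (SE 0.35, 95% interval -0.57 to 1.07, adjusted p = 0.97 in limma), 0.31 for first pools and 0.19 for second pools. In control liver it was 1.70, 1.97 for first pools and 1.44 for second pools. The difference between the genotype effects was -1.45 (SE 0.50, adjusted p = 0.96 in limma), -1.66 for first pools and -1.24 for second pools.

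**Figure D2:**
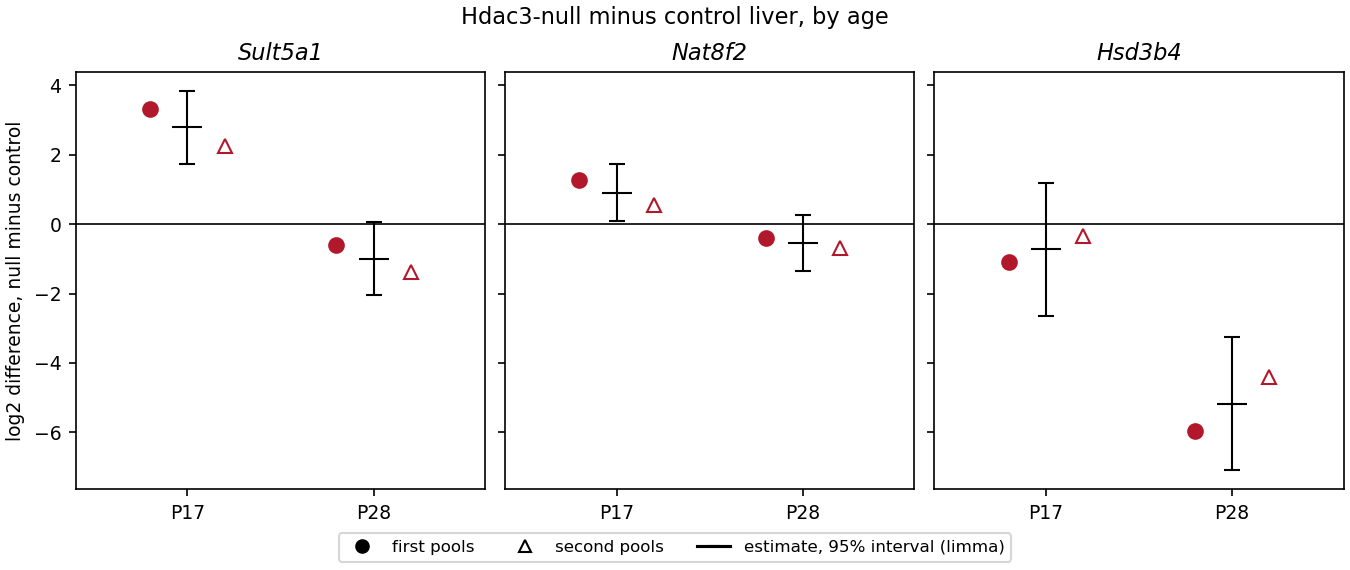
Log2 difference of Hdac3-null minus control liver (vertical axis) at P17 and P28 for the 3 genes. Circles are the first pools, triangles the second pools, and the bar is limma's estimate with its unadjusted 95% interval. Sult5a1 and Nat8f2 lie above 0 at P17 and below 0 at P28 in both pools, and Hsd3b4 lies at -5.97 and -4.40 at P28.

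Hsd3b4 was strongly detected in P28 control liver and weak elsewhere. It read 9.46 and 8.77 on the arrays of the first and 10.67 in the second pool of P28 Hdac3-null liver, against 15.05, 15.11 and 15.07 in P28 control liver. At P17 it read 8.30, 8.47 and 10.52 in Hdac3-null liver, against 9.21, 9.74 and 10.86 in control liver. The 3 arrays of P28 control liver lay apart from the other 9, whose ranges overlapped between groups. In pool averages, P28 null liver lay below P28 control liver for 16.7% of all probes. P28 control liver lay above P17 control liver for 17.1%, and that difference chose the gene. The share of probes with P28 control liver apart from all other groups was not counted.

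Detection limits what the low values of Hsd3b4 can say. The signal level under which as many values lie as scanner readings have a score under 3 (58.6%) was 9.80. In P28 Hdac3-null liver 1 of 3 arrays reached it, in P17 Hdac3-null and in P17 control liver 1 of 3 each, and in P28 control liver 3 of 3. In each of the weak groups the array that reached it was the second pool. The scanner scores of Hsd3b4 were at least 3 on 7 of 12 arrays. The 4 scores in the export of the P17 first pools were 1.14, 1.5, 2.3 and 6.2, those in the export of the P28 first pools -1.12, 2.52, 41.19 and 54.06, and those in the export attached to second pools 5.54, 5.91, 7.64 and 50.51. The second-pool export was thus the only one of the 3 with every array at a score of 3 or more. Sult5a1 and Nat8f2 reached that score on 12 of 12 arrays, with lowest scores of 11.25 and 35.75. For Hsd3b4 the level and the score disagreed in the P17 first pools. All 4 arrays lay under the level there, yet 1 array of that export, which carries no sample name, had a score of 6.2.

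**Figure D3:**
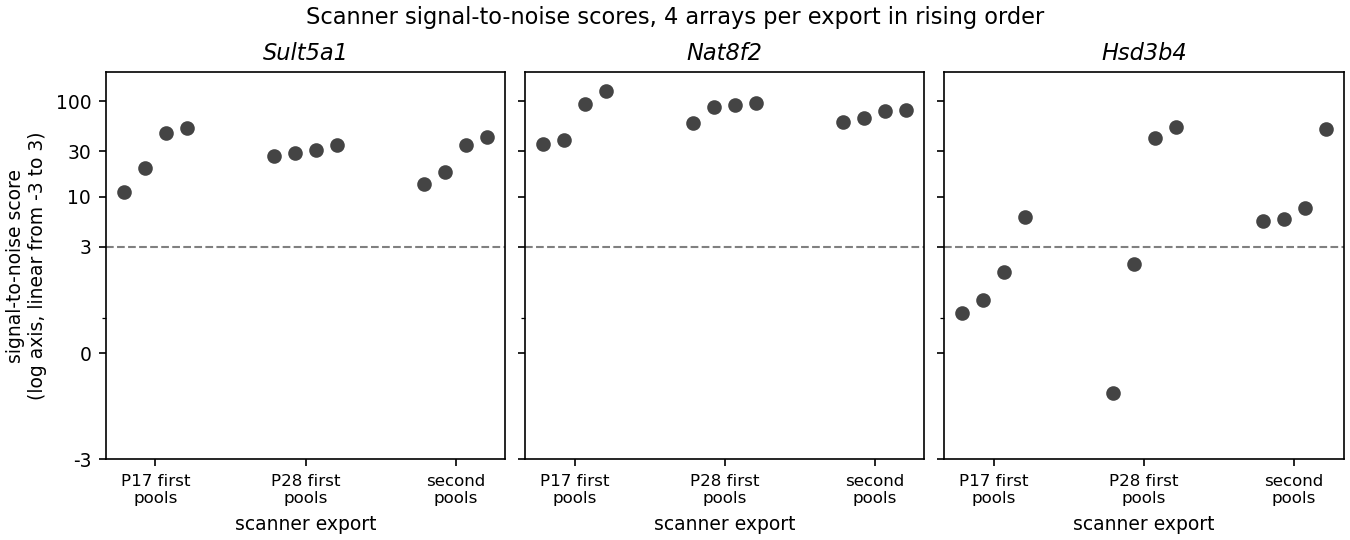
Scanner signal-to-noise scores (vertical axis, logarithmic beyond 3 and linear from -3 to 3) of the 3 genes on the 4 arrays of each export, in rising order, with a dashed line at 3. Points carry no sample name. For Hsd3b4, 3 arrays of the P17 first-pool export and 2 of the P28 first-pool export lie under the line, and no array of either other gene does.

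At P28 Hsd3b4 averaged 9.89 ± 1.10 in Hdac3-null and 15.07 ± 0.01 in control liver (SD, n = 2 pools each). The log2 difference was -5.18 (SE 0.82), a 36.3-fold lower signal in the null livers with a 95% interval of 9.62 to 137. It missed the threshold over all probes (limma, adjusted p = 0.060), passed it with the replicate block by pool (0.022) and missed it with the run set as the block (0.069), in a range of 0.0086 to 0.42 over 19 alternatives. The P28 control pools also entered the age difference that chose the gene, so this test is not independent of that choice. In the second pools, where both arrays were over the detection level, Hsd3b4 differed by -4.40, or 21.1-fold, with deposited intensities of 2406 in the null and 50461 in the control pool. In the first pools both null arrays were under the level, and with them raised to it the null signal was at least 38.8-fold lower. With every array under the level raised to it the fold over both pools was 28.6.

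At P17 Hsd3b4 averaged 9.45 ± 1.51 in Hdac3-null and 10.17 ± 0.98 in control liver (SD, n = 2 pools each), a log2 difference of -0.72 (SE 0.82, 95% interval -2.64 to 1.2, adjusted p = 1 in limma). Within pool numbers, each inside 1 run set, it was -1.09 for first pools and -0.34 for second pools. Without the first P17 null pool, which sets the second null pool alone against both control pools, it was 0.35. P28 minus P17 within null liver was 0.44 (SE 0.82, 95% interval -1.48 to 2.36, adjusted p = 0.98 in limma), 0.73 for first pools and 0.15 for second pools, and it took values below 0 without the first P17 null pool (-0.63) or without the second P28 null pool (-0.34). Both intervals include 0, and in each of these 3 groups 2 of 3 arrays were under the detection level. With those arrays raised to it the differences were -0.17 at P17 and 0.07 for age in null liver. In control liver P28 minus P17 was 4.90, 5.60 for first pools and 4.21 for second pools. Both arrays of the first P17 control pool were under the detection level, and with them raised to it the difference was 4.74 over both pools and at least 5.28 for first pools. The genotype effect at P28 minus that at P17 was -4.47 for Hsd3b4 (SE 1.17, adjusted p = 0.76 in limma).

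**Figure D4:**
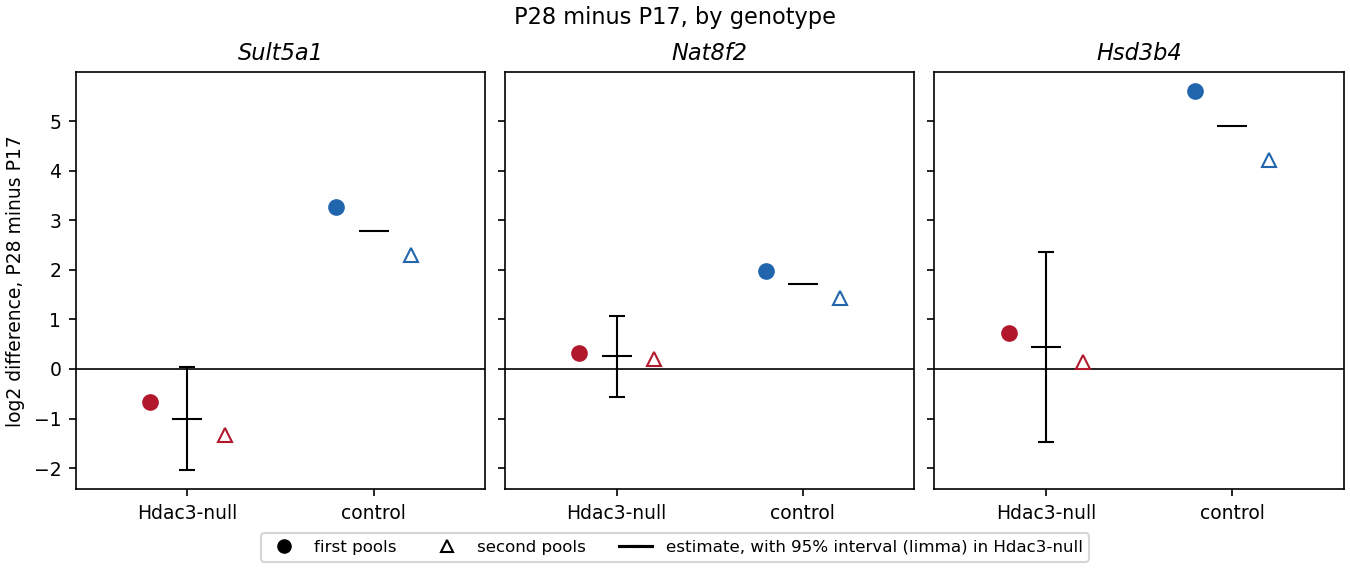
Log2 difference of P28 minus P17 (vertical axis) in Hdac3-null and in control liver for the 3 genes. Circles are the first pools and triangles the second pools. The bar is the estimate, with its unadjusted 95% interval in Hdac3-null liver only, since the difference in control liver chose the genes. In null liver the pools of Sult5a1 lie at -0.66 and -1.34, those of Nat8f2 at 0.31 and 0.19 and those of Hsd3b4 at 0.73 and 0.15.

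Counted over the 3 genes, 0 passed the test in any of these comparisons. Over all probes the share called was 0.0454% for null minus control at P17, 0.397% for null minus control at P28, 0.00909% for the age effect in null liver and 0% for the difference between the genotype effects (limma, adjusted p under 0.05). At an unadjusted p under 0.05 the members numbered 2 at P17, 1 at P28, 0 for age in null liver and 3 for the difference between the genotype effects, against 4.54%, 9.32%, 6.79% and 4.63% of all probes. For age in control liver, which chose the genes, 0.176% of all probes were called. In pool averages, the P17 null pools both lay above the P17 control pools for 2 of the 3 genes, as for 16.7% of all probes. The P28 null pools both lay below the P28 control pools for 3 of 3, as for 16.7% of all probes. The signs were above 0 in both P17 pools and below 0 in both P28 pools for 2 of 3 (Sult5a1 and Nat8f2), as for 6.1% of all probes. The P28 control pools both lay above the P17 control pools for 3 of 3, which the choice of genes fixed, and for 17.1% of all probes. Both genotype comparisons use control pools that chose the genes: low P17 controls raise null minus control at P17, and high P28 controls lower it at P28. The difference between the genotype effects contains the age difference in control liver that chose the genes. Counts for these comparisons are therefore not independent of the choice.

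From highest to lowest mean, Sult5a1 ran P17 null (14.21), P28 control (14.21), P28 null (13.21) and P17 control (11.42). The first pair differed by less than 0.01, far under the SE of 0.45. Nat8f2 ran P28 control (17.27), P28 null (16.72), P17 null (16.47) and P17 control (15.56), and its 2 null groups differed by less than the SE of 0.35. For Hsd3b4, P28 control (15.07) was followed by P17 control (10.17), P28 null (9.89) and P17 null (9.45), and the pools of these last 3 groups overlapped. The gaps between those 3 Hsd3b4 means, 0.28 and 0.44, were under the SE of 0.82, so their order is not settled.

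Duplicate arrays of 1 pool differed by 0.10 to 0.22 for Sult5a1, by 0.03 to 0.34 for Nat8f2 and by 0.07 to 0.69 for Hsd3b4 (log2, 4 first pools). The second pool differed from the first by between -0.94 and 0.80 for Sult5a1 and by between -0.24 and 0.59 for Nat8f2. For Hsd3b4 the second pool was higher by 2.14 in P17 null, 1.39 in P17 control and 1.56 in P28 null liver, and differed by -0.01 in P28 control liver. The weak Hsd3b4 readings thus spread far more between pools than between duplicate arrays, and the mice of a pool and its run set cannot be told apart as the source.

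Over the 8 pools Sult5a1 and Nat8f2 correlated with Pearson r = 0.86 (Spearman rho = 0.62), a description of pools of which 4 share a run set. Without the 2 pools farthest from the median of Sult5a1, both of P17 control liver, r was 0.28, so the likeness rests on those pools. The control pools of both ages chose all members, so a positive r between any pair is in part fixed by that choice. The places of Nat8f2 and Sult5a1 in each other's lists below depend on it too. Hsd3b4 correlated with Nat8f2 at r = 0.61 (rho = 0.43) and with Sult5a1 at r = 0.33 (rho = 0.05). Without the 2 P28 control pools, the farthest from the median of Hsd3b4, r with Nat8f2 was -0.16. Without the 2 P17 control pools, the farthest from the median of Sult5a1, r between Sult5a1 and Hsd3b4 was 0.24. Among 132 other probes with a gene name and a signal over the detection level in at least 1 group, those most like Sult5a1 were Nat8f2, the connexin gene Gjd3 (r = 0.69) and Teddm1a (r = 0.59). Those most like Nat8f2 were Mup1, which encodes a major urinary protein secreted by liver (r = 0.88), Sult5a1 and the dipeptidyl peptidase gene Dpp9 (r = 0.72). Those most like Hsd3b4 were Dpp9 (r = 0.93, rho = 0.52), the folliculin gene Flcn (r = 0.89, rho = 0.83) and the RING-finger gene Rnf112 (r = 0.85, rho = 0.88). Dpp9 averaged 16.60 in P28 control liver, whose pools also chose Hsd3b4, and between 13.76 and 13.92 in the other groups. Among all 12886 other probes over the level, the closest had no name: mCG146234 for Sult5a1 (r = 0.96) and mCG61406.2 for Hsd3b4 (r = 0.99). The named probes above ranked between 18 (Dpp9 for Hsd3b4) and 569 (Teddm1a for Sult5a1) among those 12886.

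The pathways around the 3 genes are thinly named on this array. Of 21 sulfotransferase genes 1 was measured under a name, of 10 genes in the Hsd3b family list 1, and of 15 in the Nat8 family list 1, the members themselves. Of 17 other steroid enzymes 1 was, the mitochondrial dehydrogenase gene Hsd17b10. For null minus control liver it gave -0.36 at P17 and -0.55 at P28 with an SE of 0.35, and neither passed the test (limma, adjusted p = 1 and 0.73). Of 17 growth hormone targets 1 was, Mup1, with null minus control values of 2.34 at P17 and -0.20 at P28, an SE of 0.49, and no pass in either (limma, adjusted p = 0.29 and 0.97). In null liver Mup1 stood 5.06 higher at P28 than at P17 (limma, adjusted p = 0.058, just missing the threshold), where Sult5a1, Nat8f2 and Hsd3b4 stood at -0.999, 0.25 and 0.44. In control liver the same difference was 7.60 for Mup1. For Sult5a1, Nat8f2 and Hsd3b4 it was 2.79, 1.70 and 4.90, the values that chose them. No gene of the lists of mercapturate and glutathione enzymes (17 genes), female-biased liver genes (13), maturing liver enzymes (24) or fetal liver genes (15) was measured under a name.

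Markers of other cell types beside these results were few: 1 of 10 leukocyte markers (Lst1), 1 of 8 cholangiocyte markers (Krt23) and 1 of 6 erythroid markers (Hba-a1), and 0 of 9 Kupffer cell, 0 of 5 endothelial and 0 of 6 stellate cell markers. Lst1 averaged 11.45 in P28 null and 10.23 in P28 control liver, a difference of 1.23 (SE 0.33), and -0.10 at P17 (SE 0.33). For Krt23 null minus control was -1.21 at P17 and -0.91 at P28 with an SE of 0.61, and for Hba-a1 it was 0.12 and 0.13 with an SE of 0.34. None passed the test over all probes (limma, adjusted p from 0.23 to 1). Their part in the differences of Sult5a1, Nat8f2 and Hsd3b4 was not tested.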

How the data were processed

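The arrays were single-colour ABI1700 chips hybridised with digoxigenin-labelled cRNA, per the labels. The authors deposited a table of linear intensity, whose columns share 1 distribution inside each of 3 run sets of 4 arrays (cumulative distributions differ by at most 0.0034 inside a set and by at least 0.182 between sets). The method behind this is not given in the sources used. Scanner files came as 3 distinct exports, whose 52 columns name no sample. From them, per the file headers, the score for signal over noise and the spot flag (the other values read) were used, over whole exports only.

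Intensities were quantile-normalized across 12 arrays, set to at least the 5th percentile (175), log2-transformed and averaged per pool. limma 3.58.1 in R 4.3.3 fitted 4 group means to 8 pools, leaving 4 residual degrees of freedom, with Benjamini-Hochberg adjustment over 33010 probes and calls at an adjusted p under 0.05. Each p-value rests on the spread between the 2 pools of a group, shared over all 4 groups. limma moderates this spread toward that of all probes. The number of pools limits the precision. For Hsd3b4 the SD was 0.98 to 1.51 in the weak groups and 0.01 in P28 control liver, so its shared spread comes from the weak groups. The 2 pools of a group lie in different run sets, so that spread mixes differences between mice with differences between run sets. The fit was tested on simulated data with independent noise for each pool and no shift between run sets, so that test does not cover such a shift. RefSeq accessions, without versions, named 311 of 33012 probes for 305 genes. Second-minus-first-pool differences correlated between groups with r = 0.52 to 0.65 (12887 probes, 6 pairs of groups), so a replicate block by pool was an alternative. Other alternatives changed normalization, background correction, floor, filter, run set block, duplicate arrays, variance prior and pools.

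The members and gene lists were chosen with earlier results of these data known. Named are the 3 genes, measured genes of the nearest lists, and for each member the 3 named probes with the highest Pearson r over 8 pools.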

Additional observations from a re-analysis of the deposited data

Results flagged for a closer look

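The effect of Hdac3 loss on Sult5a1 was above 0 in both P17 pools (3.32 and 2.26) and below 0 in both P28 pools (-0.61 and -1.38), on the log2 scale. The difference between the ages was -3.78 (SE 0.64), which did not pass the test over all probes (limma, adjusted p = 0.34). Nat8f2 had the same signs, with 1.26 and 0.55 at P17 and -0.40 and -0.69 at P28, and a difference of -1.45 (SE 0.50, adjusted p = 0.96 in limma). Among 32120 probes with a value in every pool, 6.1% had this pattern of signs, so the signs alone single out neither gene. The difference between the ages is arithmetically the difference between the age effects of the genotypes, and it contains the control pools that chose the genes.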

How the results depend on the processing

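Of 285 recomputed values (15 differences under 19 alternatives), 273 kept their direction and their side of the threshold (for age in control liver, stayed within the spread between pools), 7 passed the threshold that the reported value missed, 1 moved and 4 changed sign. Sult5a1 at P17 passed with the filter on dim probes and with the trended, robust variance (2.79 in both), and its difference between ages with the latter (-3.78). Hsd3b4 at P28 passed with an offset of 50 in place of the floor (-5.10), the filter on dim probes, the replicate block by pool and the trended, robust variance (-5.18 in these 3). The replicate block changed no other call. All 7 passes are in comparisons that use control pools that chose the genes. The filter on dim probes leaves 12901 probes, and Hsd3b4 passes it only through P28 control liver. Blocking on run set gave 2.37 for Sult5a1 with age in control liver, and -0.056 for Hsd3b4 with age in null liver. Leaving out 1 pool moved Hsd3b4 between -1.79 and 0.35 at P17 and between -0.63 and 1.51 for age in null liver. It moved Sult5a1 between -1.46 and -0.53 at P28 and between -1.47 and -0.53 for age in null liver, in both cases to -0.53 without the second P28 null pool. With any 1 of the 8 pools left out no tested difference of the 3 genes passed the threshold. A floor at the detection level was added after the data were seen and changed no call of the 3 genes (Hsd3b4 at P28, -4.84). Over all probes the number called ranged from 0 to 126 at P17 (15 as reported), from 0 to 521 at P28 (131), from 0 to 122 for age in null liver (3) and from 0 to 85 for the difference between the genotype effects (0). Scaling to the 75th percentile shifted the median of all probes by 0.22 for age in null and 0.21 for age in control liver. Relative to that median, age in null liver was -1.18 for Sult5a1, 0.10 for Nat8f2 and 0.58 for Hsd3b4. The causes of these shifts were not tested. Signal over background limits the low values of Hsd3b4 in first pools, which lay under the detection level. Its weak second-pool values lay above that level.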
